A study of Mus musculus with 10 samples.

Results

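The genes described here are the 7 that make up the sterol sensor of the endoplasmic reticulum and the transcription factors it holds back: Srebf2, Srebf1, Scap, Insig1, Insig2, Mbtps1 and Mbtps2. They were chosen by symbol from a table of 26264 genes, and all 7 were found. Transcript levels come from 10 RNA sequencing libraries of endothelial cells, the cells that line blood vessels, which were sorted from mouse brain by the surface protein CD31. All mice were of strain C57BL6. The PLX5622 group ate a diet with 1200 ppm of PLX5622 for 1 month (3 males and 2 females), and the control group ate control diet for the same month (3 males and 2 females). PLX5622 inhibits CSF1R, the receptor that microglia need to survive, and is given by mouth to the whole animal, so every CSF1R-bearing cell is exposed and not only microglia. The study asked what the loss of microglia does to brain vessels. Levels are in TPM, a share of all transcripts that is corrected for gene length and lets different genes be set side by side.

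Cells make cholesterol through a pathway that is switched on when sterols in the endoplasmic reticulum run low. The factors SREBP1 and SREBP2 are made as membrane-bound precursors tied to the escort protein SCAP. When sterols are plentiful, INSIG proteins hold SCAP in the endoplasmic reticulum. When sterols fall, SCAP carries the precursor to the Golgi, where the site-1 and site-2 proteases (products of Mbtps1 and Mbtps2) cut it and free the part that enters the nucleus. Much of this control acts on protein location and cleavage, which transcript levels do not measure. The brain makes nearly all of its own cholesterol, because the vessel wall keeps out that of the blood.

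The sorted cells carried endothelial transcripts at high levels. The 12 endothelial markers summed to 20984 to 22738 TPM in PLX5622 libraries and 22047 to 23485 TPM in control libraries, led by Cldn5 and Ly6c1. The 14 microglial markers summed to 42.1 to 49.5 TPM in PLX5622 libraries and 54.8 to 202 TPM in control libraries. Cx3cr1, C1qc, Aif1, Trem2 and Fcrls were listed at 0 in all 5 PLX5622 libraries. Of the 14, 3 passed the filter on low values. The ranges of the summed levels overlapped between the diets for pericytes (362 to 511 TPM on PLX5622, 323 to 479 TPM on control diet), astrocytes (93.0 to 192 and 114 to 162 TPM) and smooth muscle (138 to 196 and 160 to 250 TPM). They also overlapped for neurons (41.0 to 62.4 and 36.9 to 59.6 TPM), oligodendrocytes (17.97 to 23.5 and 15.7 to 25.3 TPM), border macrophages (2.42 to 5.15 and 3.19 to 6.81 TPM) and fibroblasts (2.88 to 4.71 and 3.33 to 5.68 TPM). In bulk RNA, fewer cells of a type and less RNA per cell cannot be told apart. Whole reads recovered from the deposited values numbered 26435152 to 61540136 per library. The 7 genes had 332 reads (Mbtps2 in control male 3) to 8362 reads (Srebf2 in control male 2) per library, a counting error of 1.09% to 5.49% of the value.

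The promoters of both genes that differed between the diets are shown first, because sterol-responsive promoters are defined by short elements in this stretch. The sequences are those of RefSeq on build GRCm38.p6, which is not the build the reads were aligned to. Each runs 5′ to 3′ in the direction of transcription, from 250 to 91 bases before the annotated start. Srebf2 lies at chr15:82147019-82147178 on the plus strand and Insig1 at chr5:28071162-28071321 on the plus strand. Capitals mark matches to TCACNCCA, a short form of the sterol regulatory element, to CCAAT (the NF-Y box), to GGGCGG (the GC box of Sp1) and to CACGTG (the E-box), on either strand.
Srebf2: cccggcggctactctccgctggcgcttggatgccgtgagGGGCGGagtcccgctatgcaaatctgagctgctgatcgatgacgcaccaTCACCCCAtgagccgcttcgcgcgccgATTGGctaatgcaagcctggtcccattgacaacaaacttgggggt
Insig1: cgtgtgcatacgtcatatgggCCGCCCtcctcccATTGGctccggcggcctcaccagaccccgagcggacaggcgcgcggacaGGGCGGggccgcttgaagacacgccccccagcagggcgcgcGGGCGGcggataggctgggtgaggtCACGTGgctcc

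In the Srebf2 sequence the sterol element begins 162 bases before the start, and an inverted CCAAT box begins 135 bases before it. TCACNCCA was present in 4.36% of 32851 promoter windows of 300 bases. It was found in 1 of the 12 windows annotated for the 7 genes, that of Srebf2. The longer form TCACNCCAC, in 1.24% of all windows, was in none of the 12, and the shorter form was taken up after the sequences had been read. The Insig1 sequence held an inverted CCAAT box that begins 216 bases before the start and an E-box that begins 101 bases before it. Over all windows, the CCAAT box was in 37.4%, the GC box in 35.7% and the E-box in 7.15%. A match is a string of letters and was not tested as a binding site.

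Among the transcription factors, Srebf2, which encodes SREBP2 and drives the genes of cholesterol synthesis and uptake, rose on PLX5622. It stood at 126, 143 and 114 TPM in PLX5622 males and 132 and 131 TPM in PLX5622 females. In controls it stood at 92.8, 84.7 and 90.1 TPM in males and 88.8 and 106 TPM in females. Every PLX5622 library lay above every control library, with a gap of 7.41 TPM between the lowest on PLX5622 (male 3) and the highest on control diet (female 2). The means were 129 ± 10.7 TPM on PLX5622 and 92.5 ± 8.14 TPM on control diet (SD, n = 5 each). The log2 fold change, taken here and below on log2(TPM + 1) with sex in the model, was 0.48 ± 0.07 (SE), with a limma adjusted p of 0.0245. Of 12751 tested genes it had the 12th smallest p and the 121st highest log2 fold change. Over all 10 libraries, Srebf2 was among the more abundant tested genes, at the 87.1 percentile of mean TPM.

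The call for Srebf2 rested on the full set of libraries. It was kept without PLX5622 male 3 or without control female 2, and missed limma's threshold when any of the other 8 libraries was dropped, with adjusted p of 0.0562 to 0.090. The fold change in all 10 of these fits lay between 0.43 and 0.52. In the authors' deposited table, which rests on a count model in DESeq2, Srebf2 had a log2 fold change of 0.50 ± 0.07 (SE) and an adjusted p of 7.48e-09. The microRNA gene Mir33, which is hosted in Srebf2, was listed at 0 in all libraries, which hold polyadenylated RNA.

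Srebf1 encodes SREBP1, the paralogue that favours genes of fatty acid synthesis and is itself a target of the sterol receptor LXR. It had 66.8, 63.7 and 55.2 TPM in PLX5622 males and 55.7 TPM in each PLX5622 female. In controls it had 52.3, 51.6 and 52.4 TPM in males and 50.2 and 55.9 TPM in females. Control female 2 stood above 3 PLX5622 libraries, so the diets overlapped, while PLX5622 males 1 and 2 lay above all the rest. The means were 59.4 ± 5.42 TPM on PLX5622 and 52.5 ± 2.09 TPM on control diet (SD, n = 5 each). The log2 fold change was 0.17 (95% confidence interval 0.03 to 0.32), which limma left uncalled at an adjusted p of 0.503 and an unadjusted p of 0.0238. The authors' deposited table gave it 0.20, with an adjusted p of 0.274 in DESeq2. In the annotation at hand Srebf1 overlaps Rai1 on the other strand. The libraries do not mark strand, so reads from the shared stretch cannot be assigned. Rai1 itself averaged 50.5 TPM on PLX5622 and 46.6 TPM on control diet.

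**Figure D1:**
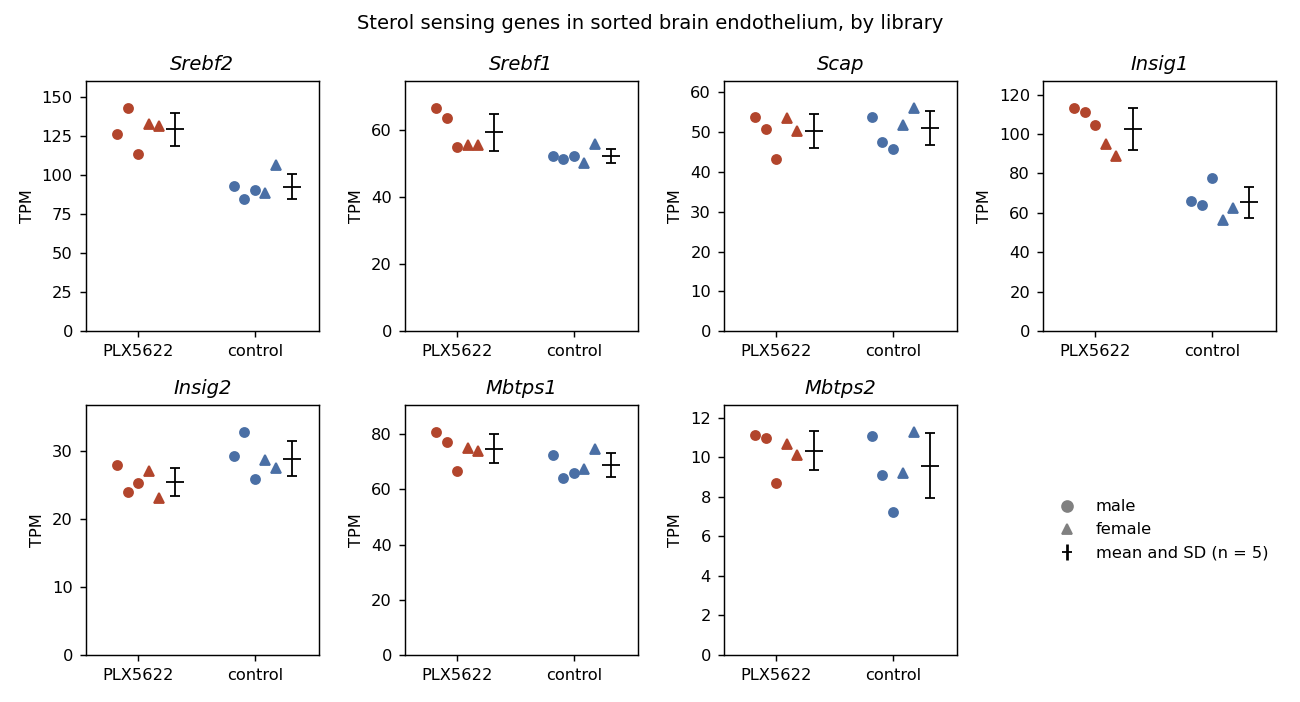
Level of each of the 7 genes in TPM (y axis, from 0) in the 5 PLX5622 libraries and the 5 control libraries, with males as circles, females as triangles, and the mean and SD beside them. The PLX5622 libraries lie above all control libraries for Srebf2 (114 to 143 against 84.7 to 106 TPM) and Insig1 (88.7 to 113 against 56.3 to 77.8 TPM), and the diets overlap for the other 5 genes.

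Of the retention proteins, Insig1 rose and Insig2 did not pass the test. Insig1 encodes the INSIG protein that is itself a target of SREBP and so closes a feedback loop on the pathway. It stood at 113, 111 and 104 TPM in PLX5622 males and 95.1 and 88.7 TPM in PLX5622 females. In controls it stood at 66.1, 64.1 and 77.8 TPM in males and 56.3 and 62.4 TPM in females. All 5 PLX5622 libraries lay above all 5 controls, with 10.9 TPM between PLX5622 female 2, the lowest on that diet, and control male 3, the highest on the other.

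Insig1 averaged 103 ± 10.5 TPM on PLX5622 and 65.3 ± 7.87 TPM on control diet (SD, n = 5 each), a ratio of means of 1.57. On the log2 scale the change of Insig1 came to 0.64 ± 0.06 (SE), at a limma adjusted p of 0.00256 and the 2nd smallest p of all 12751 tested genes. Dropping any 1 of the 10 libraries left it called, with fold changes of 0.61 to 0.69 and an adjusted p of at most 0.0205. The authors' deposited table gave 0.67 ± 0.10 (SE), with a DESeq2 adjusted p of 1.49e-08.

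Insig2 encodes the second INSIG protein, which also binds SCAP and whose gene is not a classical SREBP target. It had 28.0, 23.9 and 25.3 TPM in PLX5622 males and 27.1 and 23.1 TPM in PLX5622 females. In controls it had 29.2, 32.8 and 25.9 TPM in males and 28.6 and 27.4 TPM in females. All 5 PLX5622 libraries lay below the control median, but PLX5622 male 1 and female 1 lay above control male 3, so the diets overlapped. The means were 25.4 ± 2.07 TPM on PLX5622 and 28.8 ± 2.58 TPM on control diet (SD, n = 5 each). On the log2 scale Insig2 changed by -0.17 (95% confidence interval -0.35 to 0.0034), with a limma adjusted p of 0.613 and an unadjusted p of 0.0539.

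The balance of the INSIG genes was read as a ratio within each library, which does not depend on how libraries are scaled to each other. Insig1 exceeded Insig2 by 4.05, 4.66 and 4.13 times in PLX5622 males and 3.51 and 3.85 times in PLX5622 females. In control libraries the ratio was 2.26, 1.95 and 3.00 in males and 1.97 and 2.27 in females. The ratio thus averaged 4.04 ± 0.42 on PLX5622 and 2.29 ± 0.43 on control diet (SD, n = 5 each), with no overlap between the diets. This is a description without a test. The ratio in control male 3 was the nearest to the PLX5622 libraries, since that library had both the highest Insig1 and the lowest Insig2 of the controls.

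Srebf2 exceeded Srebf1 by 1.89 to 2.37 times on PLX5622 and 1.64 to 1.90 times on control diet. These ranges overlapped slightly, since control female 2, at 1.90, stood just above PLX5622 male 1, at 1.89. Against Scap the ranges of Srebf2 did not overlap (2.34 to 2.82 on PLX5622, 1.71 to 1.97 on control diet), nor did those of Insig1 (1.77 to 2.41 and 1.09 to 1.70). Insig1 over Srebf2 overlapped, at 0.676 to 0.92 on PLX5622 and 0.588 to 0.864 on control diet.

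**Figure D2:**
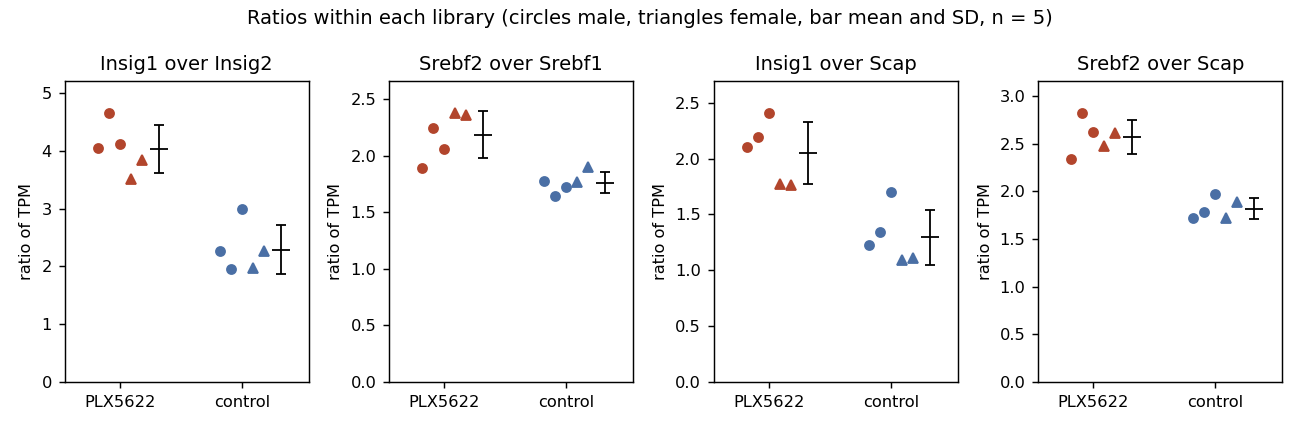
Ratio of TPM between pairs of genes within each library (y axis, from 0), with PLX5622 libraries at the left and control libraries at the right of each panel, males as circles, females as triangles, and the mean and SD (n = 5) beside them. Insig1 over Insig2 lies at 3.51 to 4.66 on PLX5622 and 1.95 to 3.00 on control diet, and the diets overlap slightly for Srebf2 over Srebf1.

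Scap, the escort that carries the sterol-sensing domain, was close between the diets. It had 53.9, 50.7 and 43.4 TPM in PLX5622 males and 53.6 and 50.3 TPM in PLX5622 females. In controls it had 53.8, 47.6 and 45.8 TPM in males and 51.8 and 56.1 TPM in females. The ranges lay over each other, and male 3 was the lowest library of each diet. The log2 fold change was -0.02 (95% confidence interval -0.18 to 0.14, limma adjusted p = 0.978), and its sign turned to 0.00062 with median-of-ratios scaling. An interval of that width excludes changes as large as those of Insig1 and Srebf2 in this model.

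Neither protease gene passed the test. Mbtps1, which encodes the site-1 protease that makes the first cut in SREBP, had 81.0, 77.1 and 66.8 TPM in PLX5622 males and 75.1 and 74.1 TPM in PLX5622 females. In controls it had 72.3, 64.2 and 65.9 TPM in males and 67.3 and 74.5 TPM in females. In 3 PLX5622 libraries it lay above all controls, and PLX5622 male 3 lay below the control median. The log2 fold change was 0.12 (95% confidence interval -0.03 to 0.26, limma adjusted p = 0.709).

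Mbtps2, which encodes the zinc protease that makes the second cut inside the membrane, was the least abundant of the 7. It had 11.2, 11.0 and 8.72 TPM in PLX5622 males and 10.7 and 10.1 TPM in PLX5622 females. In controls it had 11.1, 9.09 and 7.23 TPM in males and 9.21 and 11.3 TPM in females. The control range enclosed the PLX5622 range. The log2 fold change was 0.11 (95% confidence interval -0.15 to 0.37, limma adjusted p = 0.894). The gene Yy2 lies within Mbtps2 on the same strand and averaged 4.81 TPM on PLX5622 and 5.23 TPM on control diet. The sources used here do not say how the authors assigned reads shared by overlapping genes.

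Of the 7 genes, 2 were called, both higher, and the diets did not overlap for those 2. The same limma test called 0.133% of all 12751 tested genes, 0.0941% as higher and 0.0392% as lower, and the diets did not overlap for 1.8% of them. All 7 passed the filter on low values. The authors' deposited table also called Insig1 and Srebf2 and none of the other 5, against 0.596% of its 19474 genes at an adjusted p under 0.05. For the 5 uncalled genes, small changes could be missed. In simulated data with 50 genes changed at each of 4 fold sizes, 28% of those changed by 0.32 on the log2 scale were called. Of those changed by 0.58, 72% were called. The more genes change, the larger the p that the adjustment lets pass. The real data had 17 called genes, so these shares cannot be read as those for the 5 genes.

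**Figure D3:**
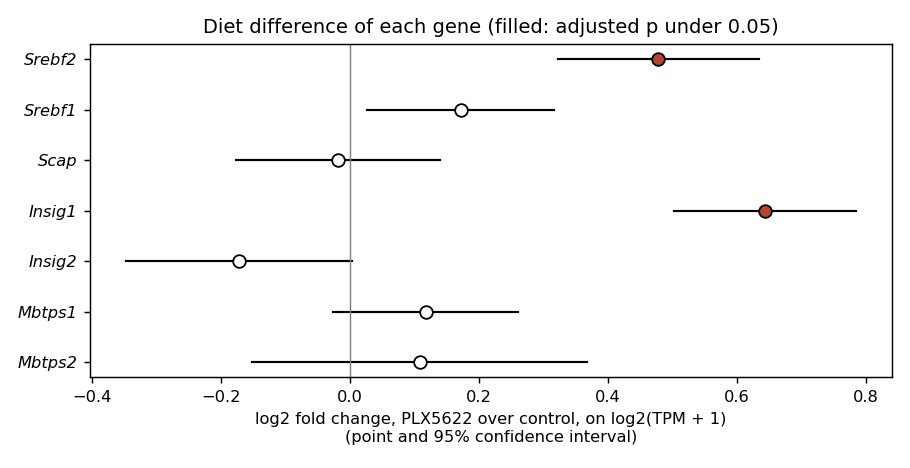
Log2 fold change of each gene, PLX5622 over control, on log2(TPM + 1) (x axis), with its 95% confidence interval from the limma fit of all 10 libraries. Filled points passed an adjusted p of 0.05. The intervals of Insig1 (0.50 to 0.79) and Srebf2 (0.32 to 0.63) lie to the right of the other 5 points, which run from -0.17 to 0.17.

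The order of the levels differed slightly between the diets. On PLX5622 it ran Srebf2 (129 TPM), Insig1 (103), Mbtps1 (74.8), Srebf1 (59.4), Scap (50.4), Insig2 (25.4) and Mbtps2 (10.3), and no gene overlapped its neighbour over the 5 libraries. On control diet it ran Srebf2 (92.5 TPM), Mbtps1 (68.8), Insig1 (65.3), Srebf1 (52.5), Scap (51.0), Insig2 (28.8) and Mbtps2 (9.58). There Mbtps1 and Insig1 overlapped, with Mbtps1 higher in 4 of 5 libraries, as did Srebf1 and Scap, with Srebf1 higher in 2 of 5. Insig1 was thus above Mbtps1 in all 5 PLX5622 libraries and in 1 of 5 control libraries, control male 3.

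The sexes were compared over both diets. Insig1 was at 109.6 TPM in males and 91.9 TPM in females on PLX5622, and at 69.3 TPM in males and 59.3 TPM in females on control diet. The male minus female difference was 0.23 on the log2 scale (95% confidence interval 0.09 to 0.38, unadjusted p = 0.00406). It did not pass over all genes in limma (adjusted p = 0.622), and none of the 7 genes did, where 0.0627% of tested genes were called between the sexes. On each diet the males lay above the females for Insig1. For the other 6 genes the unadjusted limma p between the sexes was 0.175 or more.

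No difference in the diet response between the sexes was called for any of the 7 genes in limma, nor for any of the 12751 (0.0% called, with 312 at an unadjusted p under 0.05). The diet difference of Insig1 was 0.66 in males and 0.62 in females, with an interaction of 0.03 (95% confidence interval -0.27 to 0.34). That of Srebf2 was 0.51 in males and 0.44 in females, with an interaction of 0.07 (95% confidence interval -0.27 to 0.41). With 2 females on each diet these intervals are wide. The interaction of Srebf1 was 0.17 (95% confidence interval -0.13 to 0.47), with 0.24 in males and 0.07 in females.

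The microglial content of the libraries moved with the diet, as given above, and its part in the results was not tested beyond the following values. Control female 1 carried few microglial transcripts, with a marker sum of 54.8 TPM and 3 reads of Csf1r, against 116 to 202 TPM and 322 to 1031 reads in the other 4 controls. Its Insig1, at 56.3 TPM, was the lowest of all 10 libraries, and its Srebf2, at 88.8 TPM, lay within the range of the other controls. Without that library the log2 fold change of Insig1 was 0.62 and that of Srebf2 0.45, with limma adjusted p of 0.00883 and 0.0629.

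**Figure D4:**
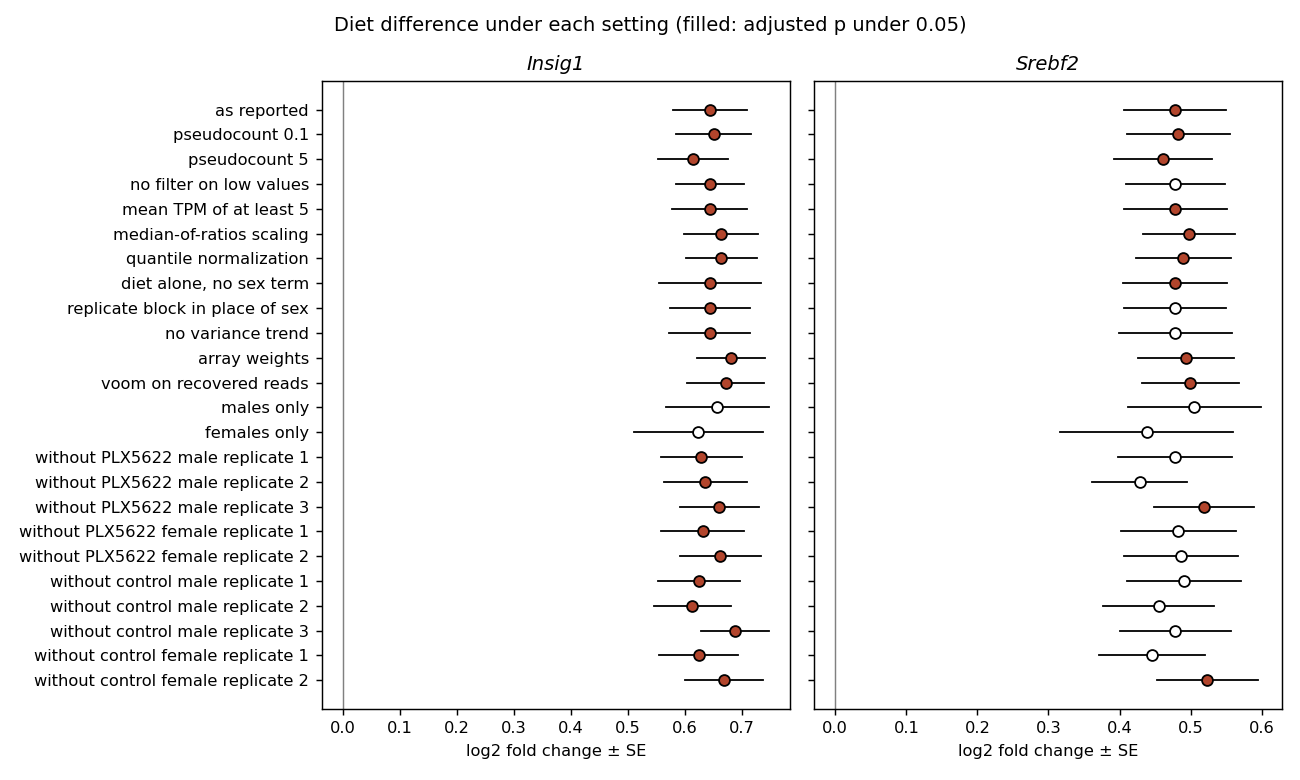
Log2 fold change of Insig1 (left) and Srebf2 (right), PLX5622 over control, with its SE, as reported and under each of 23 other settings (y axis). Filled points passed an adjusted p of 0.05, which Insig1 did in all settings but males only and females only, and Srebf2 in 10 of the 23.

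Genes that these factors control were set beside them. Of 23 target genes of SREBP2, 21 were tested, of which 8 rose and 13 were left uncalled by limma. The same test called 0.0941% of all tested genes as higher. The authors' deposited table called 10 of the 23 higher and 0 lower in DESeq2. The median log2 fold change of the 21 in limma was 0.35, against -0.02 over all tested genes. Of the 21, 20 lay above 0, where 44.3% of all tested genes did. Among the risen genes were Fdps, the farnesyl diphosphate synthase, at 103 ± 12.5 TPM on PLX5622 and 61.2 ± 5.02 TPM on control diet, and Fdft1, the squalene synthase, at 23.4 ± 2.69 and 14.4 ± 1.52 TPM (SD, n = 5 each). Sqle, Cyp51, Msmo1 and Sc5d, which act on squalene and the sterol ring, had log2 fold changes of 0.90, 0.71, 0.54 and 0.41. Insig1 thus lay within the range of these enzymes. Ebp, a sterol isomerase, was the target below 0, at -0.0013, and all 21 lay above 0 with median-of-ratios scaling or quantile normalization. The count of risen targets was 7 without PLX5622 male 3, PLX5622 female 2 or control male 3. It was 3 without control male 2, 4 without PLX5622 male 1, PLX5622 male 2 or control male 1, and 5 without PLX5622 female 1, control female 1 or control female 2. The median stayed between 0.30 and 0.42 in these 10 fits.

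Of 18 listed targets of SREBP1, 16 were tested and limma called none, with a median log2 fold change of 0.06, 10 above 0 and 6 below. The smallest p belonged to Elovl5, a fatty acid elongase, at -0.33 (limma adjusted p = 0.0777), Fasn, the fatty acid synthase, at 0.52 (adjusted p = 0.215) and Fads1, a desaturase, at 0.29 (adjusted p = 0.365). Elovl5 lay apart between the diets in the lower direction, at 107 ± 6.29 TPM on PLX5622 and 134 ± 7.99 TPM on control diet, and Fasn in the higher, at 13.9 ± 1.88 and 9.38 ± 1.246 TPM (SD, n = 5 each). The diets also did not overlap for Scd1, a desaturase, which was lower at 3.66 ± 1.546 TPM on PLX5622 and 6.39 ± 0.60 TPM on control diet (log2 difference -0.73, limma adjusted p = 0.369). Over all tested genes, 44.3% lay above 0 and the diets did not overlap for 1.8%. The authors' deposited table called 2 of the 18 higher and 1 lower in DESeq2, against 0.596% of its 19474 genes in either direction. Of the other limma settings, voom on recovered reads called 1 of these targets higher, and array weights called 1 higher and 1 lower.

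LXR, a receptor for oxysterols, drives Srebf1 and genes of sterol export. Of 12 LXR targets, 10 were tested, Abcg1 fell and the other 9 were uncalled, with a median log2 fold change of -0.10, 3 above 0 and 7 below. Over all tested genes, limma called 0.0392% as lower, 44.3% lay above 0 and the diets did not overlap for 1.8%. Abcg1, a sterol exporter, was at 8.63 ± 3.08 TPM on PLX5622 and 15.9 ± 0.83 TPM on control diet (SD, n = 5 each). PLX5622 female 2, at 14.1 TPM, stood apart from the other 4 PLX5622 libraries (6.73 to 7.74 TPM), and all 5 lay below the controls (15.1 to 17.3 TPM). Abcg1 differed by -0.86 ± 0.14 on the log2 scale (SE), at a limma adjusted p of 0.0406. The call for Abcg1 was kept without PLX5622 female 2 and lost without any 1 of the other 9 libraries, and it was also lost with median-of-ratios scaling, with no filter on low values, with no sex term, with no variance trend and in females only. The diets also did not overlap for Abca1, another sterol exporter, at 23.0 ± 4.42 TPM on PLX5622 and 33.7 ± 3.98 TPM on control diet (limma adjusted p = 0.275). They did not overlap in the other direction for Apoe, a lipid carrier, at 1258 ± 129 TPM on PLX5622 and 1018 ± 72.9 TPM on control diet (limma adjusted p = 0.313). The authors' deposited table called 0.596% of its 19474 genes in either direction. Of the 12 LXR targets it called 1 higher and 2 lower in DESeq2. Their log2 fold changes were 0.32 for Apoe, -0.53 for Abca1 and -0.86 for Abcg1. Srebf1, itself in the list of LXR targets, was on the other side of 0 from Abcg1. The receptor genes Nr1h2 and Nr1h3 had log2 fold changes of 0.06 and 0.04 and were not called.

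The genes that move SCAP and turn over the sensor were not called. The COPII coat, which packs SCAP into vesicles leaving the endoplasmic reticulum, had 11 tested genes of 11. None passed limma, and the median was -0.05. Of the 11, 10 lay below 0 (5 lay above 0 with median-of-ratios scaling), where 44.3% of all tested genes lay above 0. The smallest p were those of Sar1b at -0.17, Sec23a at -0.15 and Sar1a at -0.08. Of 14 genes of ubiquitin ligases and degradation that act on this pathway, none of the 14 tested passed, with a median of -0.03, 4 above 0 (6 with median-of-ratios scaling) and 10 below 0. Erlin1, a membrane protein of that degradation, was at -0.27 (limma adjusted p = 0.404). Rnf145, a sterol-responsive ligase, was at -0.23 (limma adjusted p = 0.469).

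Other modulators of SREBP gave 14 tested genes of 14 with none past limma's threshold, a median of 0.0092, 9 above 0 and 5 below. Lpin1, a phosphatidate phosphatase and SREBP target that limits nuclear SREBP, was at 0.36 (limma adjusted p = 0.35), Rxra, a partner of LXR, at -0.17, and Gsk3b, a kinase that marks nuclear SREBP for breakdown, at -0.15. The authors' deposited table called Lpin1 higher (DESeq2 adjusted p = 0.0122). Spring1, which licenses the site-1 protease, was at 0.12. Of 9 other substrates of the site-1 and site-2 proteases 7 were tested and none passed, with a median of 0.03. The ones of smallest p were Atp6ap2 at -0.12, Creb3l4 at 0.24 and Creb3 at 0.06.

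**Figure D5:**
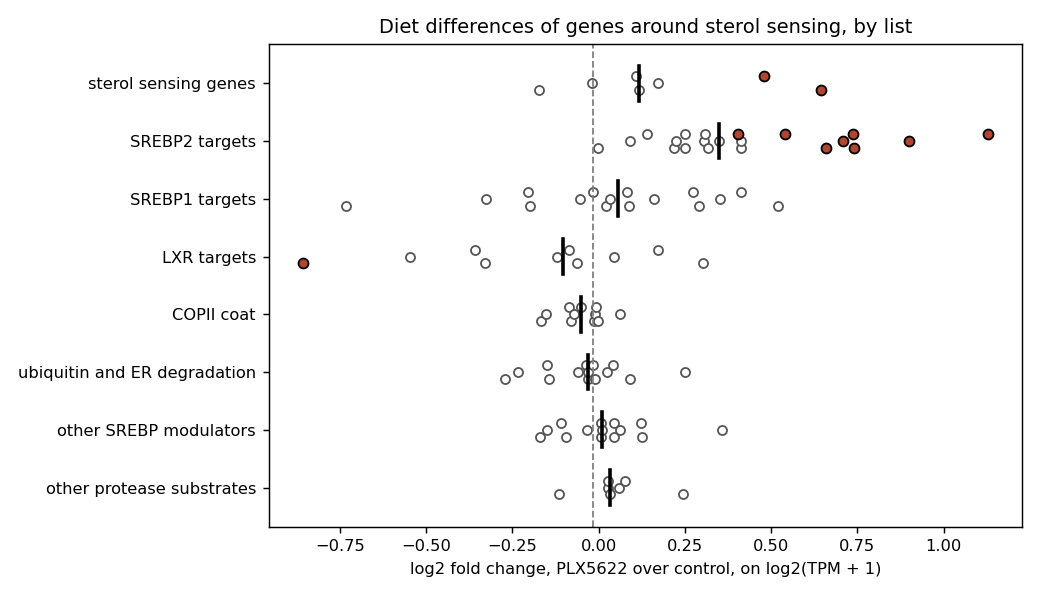
Log2 fold change on log2(TPM + 1), PLX5622 over control (x axis), of every tested gene of 8 lists (rows), with a bar at the median of each list and a dashed line at the median of all tested genes (-0.02). Filled points passed an adjusted p of 0.05, namely 2 of 7 sterol sensing genes, 8 of 21 SREBP2 targets and 1 of 10 LXR targets.

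The genes most like each of the 7 over the 10 libraries were ranked by Pearson correlation of log2(TPM + 1). All libraries share the diet split, so the correlation after removing each diet's mean is given beside it. For Insig1 they were Pcyt2, an enzyme of phosphatidylethanolamine synthesis, Msmo1, and Angpt2, a ligand of the Tie2 receptor, at r of 0.956, 0.954 and 0.948, and 0.687, 0.758 and 0.637 with the diet means removed. For Srebf2 the 3 nearest included Cbll1 at 0.94, and 0.774 with the diet means removed. For Srebf1 they were Prdm1, Unk and Lpin1 at 0.929, 0.92 and 0.919, and 0.94, 0.946 and 0.837 with the diet means removed. Those of Insig2 were Atp6ap1, H3f3a and Pithd1 at 0.929, 0.928 and 0.925, and 0.907, 0.917 and 0.897 with the diet means removed.

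For Scap the nearest were Slc1a2, Lmbrd2 and Adcy9 at 0.936, 0.924 and 0.916, and 0.941, 0.942 and 0.918 with the diet means removed. Those of Mbtps1 included Tbc1d17 and Rasa3 at 0.939 and 0.936, and 0.909 and 0.905 with the diet means removed. Those of Mbtps2 were Plxnb2, Pygb and Ttc37 at 0.934, 0.934 and 0.929, and 0.934, 0.934 and 0.922 with the diet means removed. Slc1a2 is also one of the 8 astrocyte markers listed above. Among the 7 themselves, with the diet means removed, Scap and Mbtps1 were the most alike at 0.91, followed by Scap and Mbtps2 at 0.894. Insig1 and Srebf2, which were at 0.825 over all libraries, were at -0.06 with the diet means removed. Sex was not removed from these correlations. On the log2 scale the male minus female difference was 0.23 for Insig1 and -0.09 for Srebf2, neither called by limma. The value of -0.06 therefore does not show whether Insig1 and Srebf2 moved together within a sex.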

How the data were processed

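The authors deposited TPM per gene and library and a DESeq2 table with log2 fold changes, their standard errors, p-values and adjusted p-values. Its mean count and test statistic, deposited by the authors, are treated as scores. The authors used STAR 2.7.10a, featureCounts (Subread 2.0.1), DESeq2 1.32.0, R 4.1.0 and build mm39, per the submitters' processing notes. Roles, annotation and model formula are not given in the sources used here. Per the labels' protocols, libraries were unstranded, from polyadenylated RNA.

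TPM keeps no depth. Whole reads were recovered from TPM and the authors' mean counts for 19474 genes (100% whole within 0.05 reads) and used for depth, counting error and an alternative test. Intervals of reads cover counting error only.

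Diet and sex were fitted by limma 3.58.1 (R 4.3.3) to log2(TPM + 1) with a variance trend. The 12751 tested genes reached 1 TPM in 5 or more of the 10 libraries. Tests were two-sided, Benjamini-Hochberg adjusted over all tested genes, and called under 0.05. The pseudocount makes the change of a low gene look smaller than it is. Titles call replicates biological, with no word on litter or cage. The fit was checked on simulated data with 50 genes at each of 4 fold sizes and made 8 false calls. Python 3.11.15, numpy 2.4.6 and pandas 2.3.3 were used.

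The 7 genes and all lists were chosen with earlier results of these data known. Named genes are the 7, called list members or else the 3 with the smallest p, and the 3 most alike by correlation, passing over predicted genes. Ebp, Scd1, Abca1, Apoe, Nr1h2, Nr1h3, Spring1, Rai1 and Yy2 were named after their values were seen. Some genes that the rule takes are not reported here.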

Additional observations from a re-analysis of the deposited data

How the results depend on the processing

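Insig1 kept its direction and its call in 21 of 23 other settings, and lost the call in males only (0.66, limma adjusted p = 0.0597) and females only (0.62, adjusted p = 0.988), which hold 6 and 4 libraries. Srebf2 kept its direction in all 23 and lost the call with no filter on low values (0.48, adjusted p = 0.0797), with no variance trend (0.48, adjusted p = 0.119), with the replicate block (0.48, adjusted p = 0.062), in males only (0.51), in females only (0.44) and in the fits without 1 library named above (0.43 to 0.52 over all 10). Scap, never called, changed sign with median-of-ratios scaling (0.00062), in males only (0.0052) and in some fits without 1 library (-0.057 to 0.027). The other 4 genes stayed uncalled and kept their sign in all 23 settings. The number of the 7 called was 1 with no filter or no variance trend, 0 in males only and 0 in females only, and 1 to 2 in the fits without 1 library. The number of all genes called, 17 as reported, was 7 with no filter, 7 with no variance trend, 8 in males only, 0 in females only (502 at an unadjusted limma p under 0.05), and 5 to 16 without 1 library. The cause of these changes was not tested. The count of risen SREBP2 targets, 8 as reported, was 4 with no filter, 4 with no variance trend, 6 with the replicate block, 3 in males only and 0 in females only. Voom on recovered reads called 18 genes, Insig1 and Srebf2 among them. The 14 mean levels moved by less than 1 SD with median-of-ratios scaling, and the log2 differences of the 5 ratios kept their sign without any 1 library, at 0.78 to 0.93 for Insig1 over Insig2, 0.28 to 0.36 for Srebf2 over Srebf1, 0.61 to 0.77 for Insig1 over Scap, 0.47 to 0.54 for Srebf2 over Scap and 0.10 to 0.24 for Insig1 over Srebf2.

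With the replicate block (sex and replicate number shared across diets) in place of sex, Srebf2 lost its call at 0.48 with a limma adjusted p of 0.062, Abcg1 lost its call, 1 of the 7 genes was called and 11 of all genes were called. The numbers do not pair the mice by any label, and deviations of same-numbered libraries correlated at 0.0309 to 0.190, with 4 of 5 PLX5622 libraries correlating best with the control of their own number. With 2 females on each diet, their deviations from the group mean mirror each other. Both female pairs therefore gave the same value, 0.157, and are not separate results.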
